A study of Strongylocentrotus purpuratus with 191 samples.

Results

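Embryos of 16 sea urchin crosses were compared between culture at 15C and culture at 12C. All cultures that the labels place in block 3 at either temperature were taken, which gave 64 of the 191 cultures of the series, 32 at each temperature. The species was the purple sea urchin, Strongylocentrotus purpuratus, and each culture was sampled at mid-gastrula. In block 3, 4 females (dams A3, B3, C3 and D3) were each mated to 4 males (sires A3, B3, C3 and D3), and each cross was grown at 12C, 15C and 18C in 2 replicate cultures. A cross is written dam first, so B3xC3 has dam B3 and sire C3, and a female and a male of the same name are different animals. The labels name no strain, allele or drug for any group, and both temperatures shared artificial sea water and a growth chamber. A second block of 16 crosses from other parents, grown at the same temperatures, is used below only to show where block 3 differs from it.

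A gastrula of this species holds skeletogenic mesenchyme cells that secrete the larval skeleton, other mesoderm that gives rise to pigment and blastocoelar cells, an invaginating gut and an ectoderm with an oral and an aboral side. The gene regulatory network that specifies these territories is among the best known of any embryo, and the panel was drawn from its transcription factors, signals and effector genes. Sea urchin embryos take the temperature of the sea, and warmer water speeds their development. The panel held no heat shock gene.

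RNA was read with the Illumina DASL assay, in which short oligonucleotides are extended and joined on cDNA, amplified and hybridised to beads. The deposited normalized values covered 336 probes of 74 genes on a log2 scale, and the value of a gene was the mean of its probes. Replicates of a cross were averaged and 15C was compared with 12C within crosses, so each change is a mean over 16 paired differences. The test was limma with the cross as a block, and adjusted p means Benjamini-Hochberg adjustment over the 74 genes with a threshold of 0.05. The comparison was made on the normalized values and again after the median of the 74 genes was subtracted from every array (array-centred values), which removes a shift shared by the whole panel. All values and changes below are log2 values, and ± gives the SE over crosses unless stated otherwise. Replicate cultures may share a fertilization, which the labels do not settle, and the unit of each main test was therefore the cross. Crosses share parents, 4 dams and 4 sires in all, while the tests treated the 16 paired differences as independent, and the paired fit held no term for the parents. In whole embryos, fewer cells of a type and less RNA per cell cannot be told apart.

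Markers of the territories were read above the negative control probes of the array. Msp130, a surface protein gene of the skeletogenic cells, lay 3.12 log2 units above them, Endo16, a gut gene, 2.87 above them, and nodal, the signal of the oral side, 1.85 above them. For 11 of the 74 genes the signal was under 1 log2 unit over the controls, and 6 (Alx1, Lhx2, Not, Otp, ficolin and notch) had no probe that was detected on most block 3 arrays.

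The 2 temperatures sat in different places on the plate. The 12C cultures filled rows A, B and part of C and the 15C cultures filled parts of F, G and H, so plate row and temperature cannot be told apart for this pair, while each of the 12 plate columns held cultures of both. Before normalization the median probe signal of the 12C cultures was 9.67 ± 0.280 (SD, n = 32). That of the 15C cultures was 9.97 ± 0.299 (SD, n = 32), higher by 0.300 ± 0.0627 and in 14 of 16 crosses (two-sided exact permutation test over sign changes of the 16 crosses, p = 0.000549). The negative controls were also higher, by 0.0433 ± 0.0115. After the authors' normalization the panel median was lower at 15C by 0.0427 ± 0.0334, in 10 of 16 crosses, and the same test gave p = 0.234. The panel median of single cultures ran from -0.256 to 0.444 at 12C and from -0.238 to 0.203 at 15C. The highest 12C values came from crosses A3xC3 and C3xC3, and without these crosses the panel shift was -0.00257. Without replicate 1 it was -0.00833 and 10 of 16 crosses were higher at 15C, and without replicate 2 it was -0.0771 with 10 of 16 lower.

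**Figure D1:**
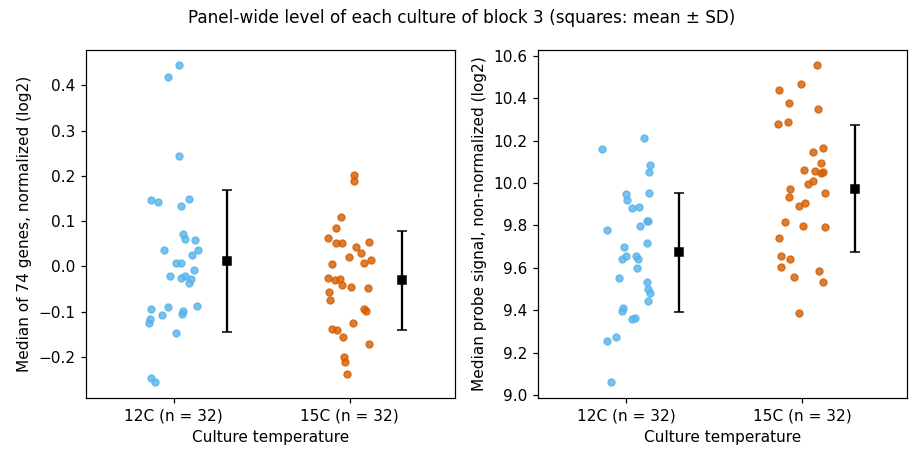
Panel-wide level of each block 3 culture at 12C and 15C (32 points each, squares give the mean ± SD). Left, the median of the 74 genes in the normalized table (log2); right, the median probe signal before normalization (log2), with means of 9.67 for 12C and 9.97 for 15C, while the normalized medians overlap and 12C reaches 0.444.

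Probes of the 3 genes called in this comparison are given here because the value of each gene is the mean of several probes, which are therefore not separate support for its change. They are printed 5′ to 3′ in lower case as in the deposited table, without capitals because no part of them was singled out. The exon number is that in the probe's name.

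gataC probe 1, exon 1: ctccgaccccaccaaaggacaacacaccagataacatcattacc

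gataC probe 4, exon 3: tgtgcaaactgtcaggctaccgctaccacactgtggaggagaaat

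gataC probe 6, exon 4: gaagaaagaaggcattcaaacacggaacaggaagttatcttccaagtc

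FoxB probe 3, exon 1: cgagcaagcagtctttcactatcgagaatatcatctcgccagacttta

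FoxB probe 6, exon 1: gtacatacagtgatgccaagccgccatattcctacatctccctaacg

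cyclophilin probe 1, exon 2: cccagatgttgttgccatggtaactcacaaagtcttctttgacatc

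cyclophilin probe 5, exon 4: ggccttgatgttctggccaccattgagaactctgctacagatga

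At 15C, 3 genes were lower than at 12C on the normalized values and none was higher: gataC, which encodes a zinc-finger factor of the non-skeletogenic mesoderm, FoxB, a forkhead transcription factor gene of the skeletogenic network, and cyclophilin, a peptidyl-prolyl isomerase gene expressed in skeletogenic cells. gataC fell by 0.17 ± 0.047, FoxB fell by 0.16 ± 0.045 and cyclophilin fell by 0.13 ± 0.035, each with adjusted p = 0.0395 in limma. On a linear scale gataC fell by 11.2%, FoxB fell by 10.6% and cyclophilin fell by 8.32%, where the medians of the changes and SEs of all genes were -0.04 and 0.0429 (log2). After array centring, gataC alone passed, lower by 0.13 ± 0.031 with adjusted p = 0.0362.

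On the normalized values the 3 lower genes were 4.05% of the 74 tested, and genes called higher were 0%. After centring the 1 lower gene was 1.35%, and genes called higher were again 0%. The normalized changes of all 74 genes ran from -0.19 to 0.08, with 60 below 0 and 14 above. The centred changes ran from -0.14 to 0.12, with 36 below 0 and 38 above. At an unadjusted p under 0.05 in limma, the normalized values gave 13 genes, all lower, and the centred values gave 8 lower and 7 higher. Without crosses A3xC3 and C3xC3, an alternative added after seeing the data, no gene passed on the normalized values (4 had an unadjusted p under 0.05) and FoxB passed on the centred values in place of gataC, whose adjusted p was 0.068. The normalized calls also went to 0 without dam A3, C3 or D3, or without sire A3, B3 or D3.

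**Figure D2:**
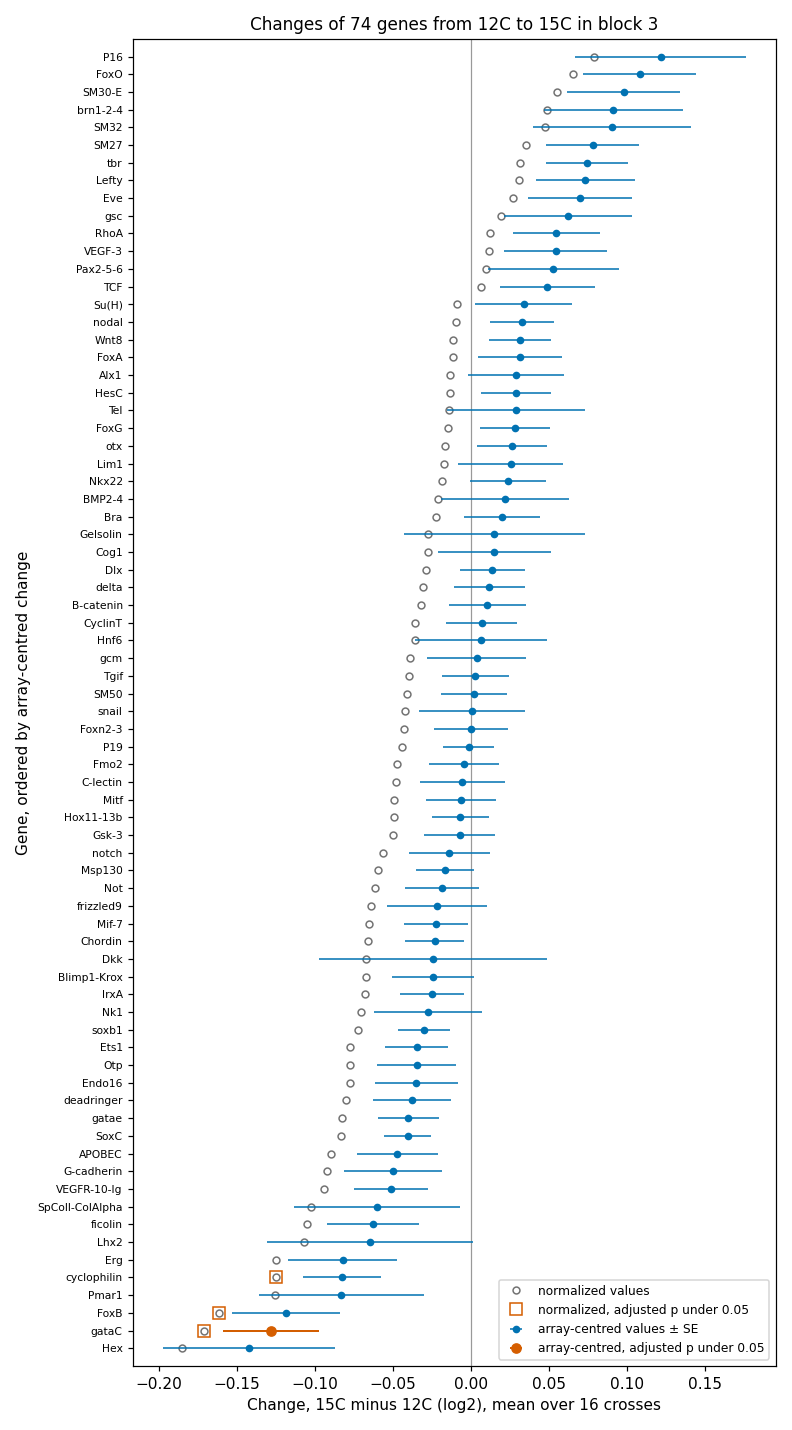
Change from 12C to 15C of each of the 74 genes in block 3 (log2, mean over 16 crosses), ordered by the array-centred change. Filled points are array-centred changes ± SE, open circles normalized changes, and the squares mark gataC, FoxB and cyclophilin, lower on the normalized values with adjusted p = 0.0395; gataC is the orange point.

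The protein encoded by gataC binds DNA through zinc fingers and is related to the vertebrate GATA1, GATA2 and GATA3 proteins. Its normalized level in the 16 crosses at 12C had a lowest value of -0.21, a median of -0.01 and a highest value of 0.77. At 15C the lowest was -0.51, the median -0.18 and the highest 0.43. The groups overlapped widely across crosses, but within crosses 14 of 16 were lower at 15C. After centring the median went from 0.00 at 12C to -0.12 at 15C, and again 14 of 16 crosses were lower, the exceptions being B3xC3 (0.12) and C3xD3 (0.16). Level and change did not follow the same dams. The 4 crosses of dam C3 held the highest centred levels at both temperatures, from 0.27 to 0.44 at 12C and from 0.20 to 0.43 at 15C, with the other 12 crosses between -0.15 and 0.11 at 12C and between -0.36 and -0.03 at 15C. The centred change was -0.21 ± 0.056 in the crosses of dam A3 and -0.21 ± 0.039 in those of dam D3, against -0.02 ± 0.120 for dam B3 and -0.07 ± 0.160 for dam C3 (SD, n = 4 crosses each). The limma F test between dams gave p = 0.0321 for gataC and an adjusted p of 0.567, so the difference between dams did not pass.

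All 6 gataC probes were lower at 15C, with centred changes from -0.19 to -0.08. The gene lay 1.37 log2 units above the negative controls and 4 of its 6 probes were detected on most arrays. Probe 1, the brightest at 2.71 log2 units above the controls, changed by -0.15 ± 0.074, and probe 6, at 0.446 above them and detected on 34.4% of arrays, by -0.11 ± 0.041.

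FoxB belongs to the forkhead family and is expressed in skeletogenic mesenchyme. Its normalized level at 12C had a lowest value of -0.30, a median of 0.07 and a highest of 0.59. At 15C the lowest was -0.48, the median -0.08 and the highest 0.13. The top of the range came down more than the bottom, and 14 of 16 crosses were lower at 15C. The centred change was -0.12 ± 0.035, lower in 13 of 16 crosses, with an adjusted p of 0.0895 in limma, past the threshold only on the normalized values. The 3 crosses that were higher after centring were A3xC3 (0.22), C3xA3 (0.09) and D3xD3 (0.11). In A3xC3 the normalized value itself was lower by 0.12, while the panel median of that cross was lower by 0.336. Dam B3's crosses were closest to each other, at -0.23 ± 0.037, and dam A3's were spread widely, at -0.05 ± 0.189 (SD, n = 4 crosses each). All 6 probes, named for exon 1, were lower, and the brightest, probe 3 at 3.06 log2 units above the controls, had the largest centred change of -0.21 ± 0.048 and was lower in 14 of 16 crosses. Probe 4, with -0.14 ± 0.054, lay 0.368 above the controls and was detected on 28.1% of arrays. Probe 1 lay 0.687 above them and was detected on 56.25%, while probes 2, 3, 5 and 6 were detected on at least 98.4%.

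Cyclophilins help proteins fold by turning proline bonds. The cyclophilin gene of the panel had the smallest SE of the 3 called genes and lay 3.40 log2 units above the controls, with all 5 probes detected. Its normalized level at 12C had a lowest value of -0.13, a median of 0.07 and a highest of 0.39, and at 15C these were -0.35, 0.00 and 0.13. It was lower in 15 of 16 crosses, all but B3xC3. The centred change was -0.08 ± 0.025, lower in 14 of 16 crosses, with an adjusted p of 0.0895 in limma. The crosses of dam D3 had a centred change of -0.19 ± 0.086, against -0.06 ± 0.119 for dam A3, -0.02 ± 0.058 for dam B3 and -0.05 ± 0.038 for dam C3 (SD, n = 4 crosses each). All 5 probes were lower: those of exon 4 changed by -0.08, -0.13 and -0.14 after centring and both of exon 2 by -0.04.

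**Figure D3:**
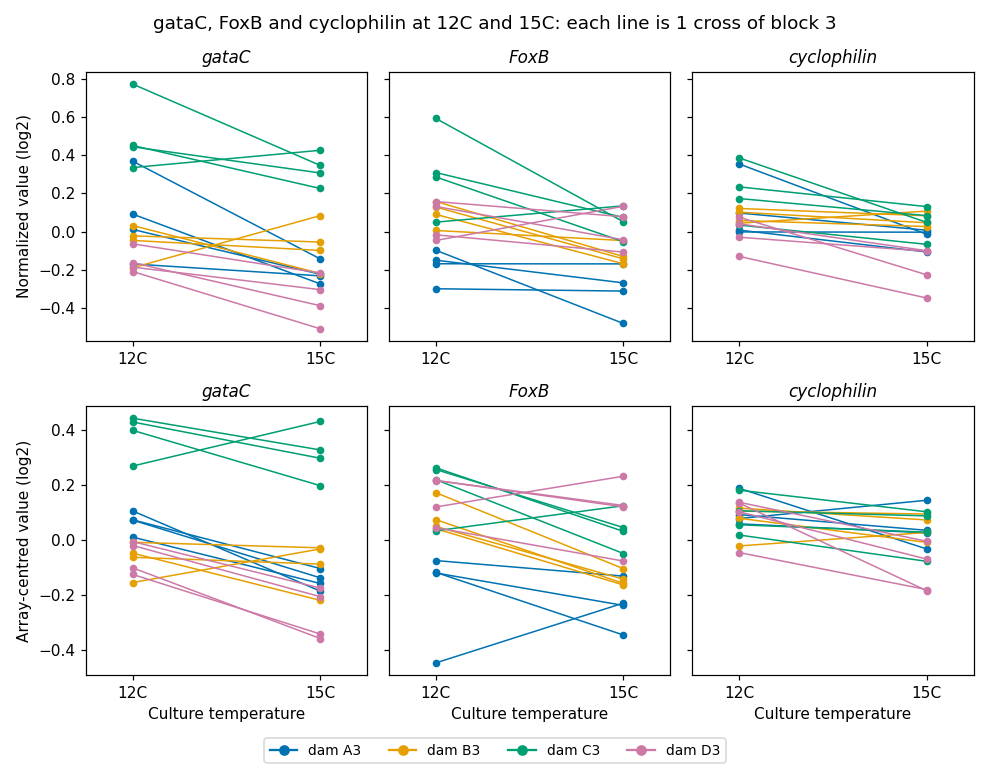
Levels of gataC, FoxB and cyclophilin at 12C and 15C in each cross of block 3 (log2, mean of 2 replicate cultures; upper row normalized, lower row array-centred). Each line is 1 of 16 crosses, coloured by dam; on the normalized values 14, 14 and 15 lines slope down, and dam C3's crosses hold the highest gataC levels.

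**Figure D4:**
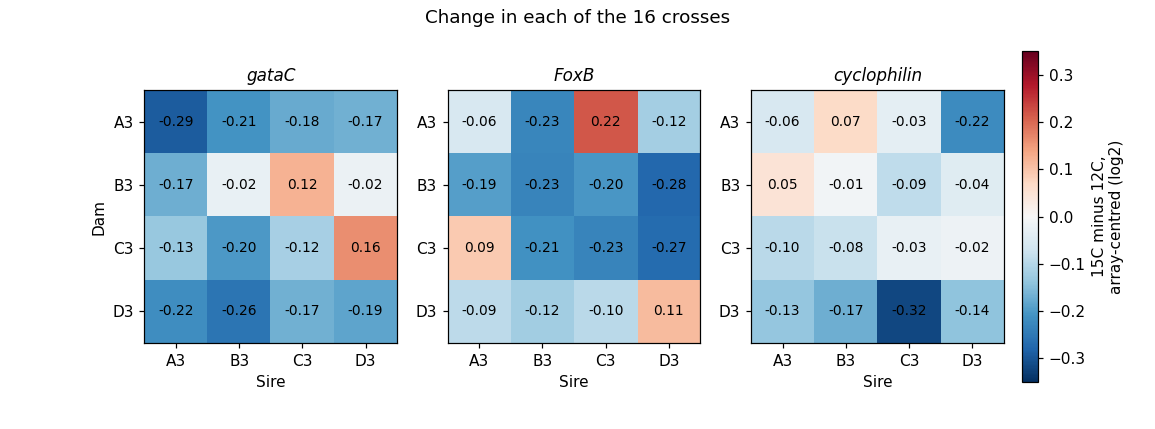
Array-centred change from 12C to 15C (log2) of gataC, FoxB and cyclophilin in each combination of 4 dams (rows) and 4 sires (columns), blue where 15C was lower. gataC was higher in B3xC3 (0.12) and C3xD3 (0.16), FoxB in A3xC3, C3xA3 and D3xD3, and the lowest cyclophilin value was in D3xC3.

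Within plate columns, each of which held both temperatures in separate rows and with crosses not matched, centred gataC was lower at 15C in 10 of 12 columns, FoxB in 9 and cyclophilin in 10. In the table before normalization, with arrays centred, gataC was lower by 0.18 ± 0.039, FoxB by 0.17 ± 0.044 and cyclophilin by 0.17 ± 0.029, with adjusted p of 0.00364, 0.00694 and 0.000951 in limma. That table gave 16 calls, 15 lower and 1 higher, and 8 of the 15 lower genes had a signal under 1 log2 unit over the controls, against 3 of the 58 genes not called. The part of plate position and of signal level in these changes was not tested.

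**Figure D5:**
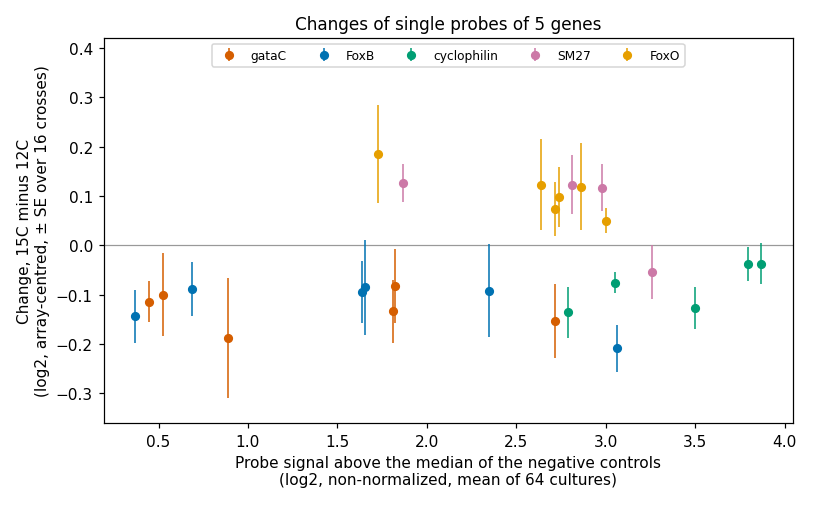
Array-centred change from 12C to 15C (log2, ± SE over 16 crosses) of single probes of gataC, FoxB, cyclophilin, SM27 and FoxO, against each probe's signal above the negative controls (log2). All probes of the first 3 genes are below 0; the 6 FoxO probes and 3 of 4 SM27 probes are above 0.

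The highest centred changes included several skeletogenic genes, and none of these passed the test. Skeletogenic genes, among them Hex, FoxB and cyclophilin, also stood among the lowest centred changes. P16, a membrane protein gene of skeletogenic cells needed for growth of the skeletal rods, had a centred change of 0.12 ± 0.055 (12 of 16 crosses higher, adjusted p = 0.235). Its values at 15C ran from -0.21 to 0.70 after centring, and the top value, in B3xC3, was also its highest cross at 12C. The spicule matrix gene SM27 had a centred change of 0.08 ± 0.030 and was higher in 14 of 16 crosses (adjusted p = 0.153 in limma). Its probes 1, 2 and 3 changed by 0.12, 0.12 and 0.13, but the brightest, probe 4, changed by -0.05 ± 0.054. The spicule matrix genes SM30-E and SM32 had centred changes of 0.10 ± 0.036 and 0.09 ± 0.051, with adjusted p of 0.153 and 0.324 in limma. SM50, a further spicule matrix gene, had a centred change of 0.00 ± 0.021. FoxO, a forkhead gene, had a centred change of 0.11 ± 0.036 (13 of 16 crosses higher, all 6 probes above 0, adjusted p = 0.137), and tbr, the T-box regulator of the skeletogenic cells, had 0.07 ± 0.026 (12 of 16 higher, adjusted p = 0.153). On the normalized values, which still hold the panel shift, 3 of the 6 tbr probes were below 0.

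Among the other genes at the ends of the order, brn1-2-4, a POU-domain gene of the gut, had a centred change of 0.09 ± 0.044 and Lefty, which antagonises Nodal, 0.07 ± 0.032. At the low end Hex, a homeobox gene of the skeletogenic network, had the lowest change of the panel, -0.14 ± 0.055 after centring and -0.19 ± 0.067 before it, with adjusted p of 0.153 and 0.165. It was lower in 12 of 16 crosses and in 11 of 12 plate columns, but lay 0.998 log2 units above the controls with 1 of 3 probes detected, and passed when replicate 2 was left out, with -0.36 on the normalized values. Erg, an ETS-family gene, had -0.08 ± 0.035 and was lower in 12 of 16 crosses, and Pmar1, the repressor that opens the skeletogenic programme in micromeres, had -0.08 ± 0.053 with 8 crosses on each side. Lhx2 and ficolin had centred changes of -0.06 ± 0.066 and -0.06 ± 0.030 from probes that were not detected on most arrays. Of the genes from P16 to ficolin, none passed in the deposited normalized values as tested here or after array centring. In the non-normalized table with arrays centred, 4 of them did in limma: brn1-2-4 was higher by 0.16 ± 0.042 (adjusted p = 0.00694), while Hex changed by -0.29 ± 0.066 (adjusted p = 0.00364), ficolin by -0.29 ± 0.061 (adjusted p = 0.00364) and Lhx2 by -0.23 ± 0.081 (adjusted p = 0.0454). brn1-2-4 and Hex also passed after quantile normalization of that table, with changes of 0.18 and -0.19.

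By territory, each called gene was the only call in its list. Over all 74 genes, 4.05% were called lower on the normalized values and 1.35% after centring. With so few calls, a lone member says little about its territory. Of 15 regulators of the skeletogenic mesenchyme, FoxB was lower on the normalized values and none was called after centring, with 7 centred changes above 0 and 8 below and a median of 0.00. Of 13 skeleton and matrix effector genes, cyclophilin was lower on the normalized values and none after centring. After centring 5 of their changes were above 0 and 8 below. Their centred median was -0.01, with P16 at the top and cyclophilin at the bottom of the list. Of 5 genes of pigment cells and other non-skeletogenic mesoderm, gataC was lower on both scales. Its list mates gcm, which specifies pigment cells, and Mitf, a bHLH gene, had centred changes of 0.00 ± 0.032 and -0.01 ± 0.022, and Fmo2, an enzyme gene of pigment cells, 0.00 ± 0.022. The fifth member, Not, had no detected probe.

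No gene of the other 8 lists was called on either scale, and over all 74 genes the median was -0.04 on the normalized values and 0.00 after centring. The 9 endoderm transcription factor genes had a centred median of 0.02 and the 3 gut differentiation genes of -0.04. The 4 Nodal and BMP genes had 0.03, the 6 oral ectoderm transcription factor genes 0.03 and the 5 aboral ectoderm genes -0.03. The medians of the 3 ciliary band and neural genes, the 6 Wnt pathway genes and the 3 Delta-Notch genes were -0.03, 0.00 and 0.01. In every list but the skeletogenic effectors and regulators and the endoderm factors, at most 1 normalized change was above 0. A gene may stand in more than 1 list, and 6 genes, SM32 among them, stood in none.

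No gene's change from 12C to 15C differed between dams or between sires past the threshold on the array-centred values, with 0% called in both limma F tests (9 residual df). On the normalized values the count was 0 for both as well, with smallest adjusted p of 0.317 for dams and 0.986 for sires. At an unadjusted p under 0.05 there were 5 genes for dams and 3 for sires. The smallest p between dams was that of Gelsolin, an actin-severing protein gene (adjusted p = 0.567). Its centred change was -0.24 ± 0.304 for dam A3, 0.22 ± 0.171 for dam B3, 0.01 ± 0.110 for dam C3 and 0.07 ± 0.208 for dam D3 (SD, n = 4 crosses each). All 4 crosses of dam B3 were higher and 3 of 4 of dam A3 lower. The smallest p between sires was that of Erg (adjusted p = 0.821), with -0.23 ± 0.090 for sire A3, -0.08 ± 0.133 for sire B3, -0.02 ± 0.173 for sire C3 and 0.01 ± 0.088 for sire D3.

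The crosses of block 4, from other parents and on the other plate, were set against block 3 with a limma contrast of both changes. Block and plate cannot be told apart. The difference between blocks passed for 9 of 74 genes (12.2%) on the normalized values, each more positive in block 4, and for 1 gene (1.35%) after centring. cyclophilin changed by -0.13 ± 0.035 in block 3 and by 0.06 ± 0.024 in block 4, a difference of 0.18 ± 0.040 with adjusted p = 0.00188 in limma. gataC changed by -0.17 ± 0.047 and 0.06 ± 0.057, a difference of 0.23 ± 0.075 with adjusted p = 0.0316. After centring these differences were 0.07 ± 0.035 and 0.13 ± 0.060, both with adjusted p = 0.414. FoxB changed in the same direction in both blocks, -0.16 ± 0.045 in block 3 and -0.17 ± 0.070 in block 4 on the normalized values, and -0.12 ± 0.035 and -0.24 ± 0.064 after centring, where the block 4 change had an adjusted p of 0.0388 in limma. The gene that differed after centring was Dkk, a secreted Wnt antagonist, with a centred change of -0.02 ± 0.073 in block 3 and 0.61 ± 0.104 in block 4. In block 3 its crosses ran from -0.45 to 0.47 at 12C and from -0.38 to 0.21 at 15C, 9 of 16 were higher at 15C, and its 2 probes lay 0.901 log2 units above the controls. On the block 4 arrays they lay 1.62 log2 units above the controls, yet neither of the 2 was detected on most arrays there, so the block 4 change rests on probes undetected on most arrays.

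The 18C cultures of block 3 share the 12C cultures with this comparison, so their values are set side by side only. The normalized mean of gataC was 0.09 ± 0.295 in the 12C cultures, -0.08 ± 0.279 in the 15C cultures and -0.01 ± 0.203 in the 18C cultures (SD, n = 16 crosses). FoxB averaged 0.07 ± 0.216, -0.09 ± 0.170 and 0.02 ± 0.170 at the 3 temperatures, so both genes had their lowest mean at 15C. The means differed by less than these SDs between crosses, which do not measure change within crosses. No test of 15C against 18C was run. cyclophilin averaged 0.10 ± 0.135, -0.03 ± 0.128 and -0.07 ± 0.173, lowest at 18C. When the 18C cultures entered the fit, no gene was called for 15C against 12C on either scale.

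The cultures also differed in stage and in sampling time. The culture stage score, whose scale the labels do not state, was 0.323 ± 0.0630 in the 12C cultures and 0.349 ± 0.0682 in the 15C cultures (SD, n = 32), a rise of 0.0263 ± 0.0102 and in 13 of 16 crosses (two-sided exact permutation test, p = 0.0197). The sampling time, given without a unit, had a mean of 37.3 for 12C and 28.6 for 15C. Its change was -8.71 ± 0.0708 and it was lower at 15C in all 16 crosses, so sampling time and temperature cannot be told apart. With the stage score as a covariate no gene was called on either scale. The changes of gataC, FoxB and cyclophilin were then -0.19, -0.19 and -0.13 on the normalized values, with adjusted p of 0.125, 0.125 and 0.221 in limma.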

How the data were processed

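Values were taken from 2 tables. The deposited normalized values are on a log2 scale, with a mean near 0 for every probe on a plate as read from the values; the authors' normalization method is not given in the sources used here, and BeadStudio is named per the submitters' processing notes. The deposited non-normalized values were read as log2 intensities, and 1 of their array columns belonged to no sample and was not used. From these, gene means, array-centred values, cross means and paired differences were computed. limma 3.58.1 in R 4.3.3 was run on paired cross means (15 residual df) with the cross in the model and with Benjamini-Hochberg adjustment over 74 genes. Exact tests used all 65536 sign changes. Detected probes exceeded all but a share under 0.05 of the 27 negative controls on the same array. Figures used matplotlib 3.10.9.

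The cultures, the gene lists and the tests were chosen with earlier results of these data known. Named genes were every call, the 8 lowest and 8 highest centred changes, the centred calls between blocks, and the smallest p between dams and between sires. The main fits did not pair cultures across temperatures by replicate number, and the labels do not say whether the numbers pair them. The number of arrays limits the precision. The fits were tested on simulated data. Alternatives covered the blocks, probes, centring, tables, detection, stage and crosses left out.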

Additional observations from a re-analysis of the deposited data

Results flagged for a closer look

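The change from 12C to 15C differed between the 2 blocks for 10 values, by the contrast of both changes in limma. Each is given as block 4 minus block 3, and block and plate cannot be told apart. On the normalized values the difference was 0.74 for Dkk, 0.20 for Ets1, 0.37 for Lhx2, 0.19 for Mitf, 0.17 for Otp, 0.25 for brn1-2-4, 0.18 for cyclophilin, 0.23 for gataC and 0.18 for notch. Over all genes its median was 0.11, with 68 of 74 differences above 0. After array centring the difference of Dkk was 0.63 ± 0.133 with adjusted p = 0.00275 in limma, and no other gene passed. With replicate 1 or replicate 2 left out, Dkk no longer passed, and the smallest adjusted p of any gene was 0.503 and 0.0628. Of these genes Lhx2, Otp and notch had no probe detected on most block 3 arrays, Dkk had none on most block 4 arrays, and Ets1, Otp, Mitf and notch were named only because this contrast called them or a list holds them, after their values were seen.

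The non-normalized table held 3 genes that the normalized table does not, and all gave signal above the negative controls in the 64 cultures. RBM8A lay 3.92, Hmx 2.60 and Kakapo 2.41 log2 units above the controls. With arrays centred, their changes from 12C to 15C were 0.00 ± 0.052 for RBM8A, -0.02 ± 0.030 for Hmx and 0.00 ± 0.027 for Kakapo, each within the spread between crosses.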

How the results depend on the processing

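The number of genes called at 15C against 12C was 3 on the normalized values and 1 after array centring. gataC and FoxB kept their negative sign on both scales in every alternative run, and cyclophilin in all but 1, while their side of the threshold often changed. On the normalized values the count was 0 without the cross as a block, with plate row and cross as fixed blocks over 3 temperatures, with the 3 temperatures of block 3 in the fit, with the median of probes, with the brightest probe, with detected probes only, with either stage covariate, and without crosses A3xC3 and C3xC3. It was 1 with plate column and cross as fixed blocks and with both blocks in the fit (cyclophilin each time), and 1 without the 5 arrays of most distant median (gataC). It was 5 after quantile normalization of the non-normalized table and 16 when that table's arrays were only centred, a fit that is the same on both scales. It was 6 with plate row as a random block. The correlation within rows was -0.0112 on the normalized values and 0.00944 after centring. Each row held cultures of only 1 of the 2 temperatures, so this fit could not adjust for plate position. The fit with row and cross fixed separated row from temperature only through the warmest block 3 cultures, which shared some rows. Leaving out a replicate, dam or sire gave 0 to 2 genes on either scale: the normalized count was 0 without replicate 1 and 1, Hex, without replicate 2. Centred gataC passed without dam B3, dam C3 or sire D3 and had adjusted p up to 0.255 in the other settings that left out a replicate, dam or sire. With the cross as a random block cyclophilin passed on both scales, while gataC had adjusted p of 0.0832 normalized and 0.126 centred and FoxB 0.0594 and 0.126. With the brightest probe, centred FoxB passed (adjusted p = 0.0346) and gataC did not (adjusted p = 0.331). After centring the count was 0 without the cross block, with row and cross fixed, with 3 temperatures, with both blocks, centred on the median of probes, with detected probes only, with either stage covariate and without the 5 arrays. It was 2 with the median of probes (gataC and tbr), 4 with plate row random, 6 with plate column and cross fixed, 6 in the quantile-normalized and 16 in the non-normalized table. The replicate block gave 4 genes on the normalized values and 3 after centring (FoxB, cyclophilin and gataC). The fits with plate row, plate column, the cross as a random block or the replicate block took single cultures as the unit. Replicate cultures of a cross entered these fits separately, so their calls are not calls over crosses. The correlation over genes of the replicate differences at 12C and 15C ran from -0.495 to 0.510 in 16 crosses (median -0.0334, 7 over 0.1). These correlations cannot settle whether the replicate numbers pair cultures, which the labels do not say. The cause of these moves was not tested. Settings that leave out genes or cultures also test fewer of them.

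The panel shift turned to 0.297 before normalization and to 0.0132 after quantile normalization. The stage difference lay between 0.0148 and 0.0368 with a replicate, dam or sire left out, and lost its p below 0.05 without replicate 1 (p = 0.0805), without replicate 2 (p = 0.303) and without dams B3, C3 or D3 or sires A3 or C3. Block differences on the normalized values numbered 1 to 15 with a replicate, dam or sire left out and 1 with probes detected on both plates. After centring they numbered 0 to 1, and 0 with probes detected on both plates. Dam and sire tests gave 0 in every alternative run.

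Signs turned in cyclophilin after centring and otherwise in genes not called in block 3 on the normalized or centred values, of which several were called under some alternative: ficolin under 4 normalized and 1 centred, brn1-2-4 under 2 on each scale, Lhx2 under 1 on each scale, and after centring tbr under 3, FoxO under 1 (without dam C3) and SM30-E under 1 (plate column). Hex kept its sign and was called under 4 alternatives on each scale, though its change was as small as -0.0107 normalized and -0.00235 centred. The array-centred fit of the non-normalized table is the same on both scales and is counted under each, and Lhx2 passed in that fit only. With plate row and cross fixed, the normalized changes were -0.124 for P16, -0.317 for FoxO, -0.158 for SM30-E, -0.309 for brn1-2-4, -0.237 for SM32, -0.118 for SM27, -0.130 for tbr and -0.0501 for Lefty. The centred ones were 0.0863 for cyclophilin, 0.0810 for Pmar1, 0.101 for ficolin, -0.0969 for FoxO, -0.0885 for brn1-2-4 and -0.0160 for SM32. No plate row held both temperatures compared, so this fit separated row from temperature only through the warmest block 3 cultures. Its normalized changes were -0.487 for FoxB, -0.427 for gataC and -0.134 for cyclophilin, against -0.162, -0.171 and -0.125 in the main fit. No gene that turned sign in it passed, with a smallest adjusted p of 0.242 in limma (FoxO, normalized). The part of plate row in these turns was not tested. With the brightest probe, brn1-2-4 was -0.0108 and SM27 -0.0966 normalized, and SM27 -0.0491 centred. In the centred non-normalized table SM30-E was -0.00577, Dkk 0.0179 and Gelsolin 0.0323, and after its quantile normalization Dkk was 0.130 (0.117 centred) and Gelsolin 0.0749. The stage mean gave brn1-2-4 -0.0196 normalized and Gelsolin -0.0607 centred, the stage SD gave Dkk 0.00877 centred, and plate column gave Gelsolin 0.00185 normalized. Without crosses A3xC3 and C3xC3 Dkk was 0.0429 normalized and 0.0454 centred and Gelsolin 0.0191 normalized, and without the 5 arrays Gelsolin was -0.00937 centred. With a replicate, dam or sire left out, normalized changes ran from -0.190 to 0.00520 for Lhx2, -0.0293 to 0.160 for FoxO, -0.0374 to 0.147 for SM30-E, -0.0501 to 0.147 for brn1-2-4, -0.00643 to 0.115 for SM32, -0.0380 to 0.109 for SM27, -0.0149 to 0.0762 for Lefty, -0.190 to 0.0246 for Dkk and -0.113 to 0.0719 for Gelsolin. Centred ones ran from -0.130 to 0.0277 for Lhx2, -0.125 to 0.0385 for Dkk and -0.0539 to 0.101 for Gelsolin. In all, 53 of 1070 values of named genes turned sign, with the array-centred fit of the non-normalized table counted on each scale. Signal over background limits the 11 genes under 1 log2 unit above the controls.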
